A study of Apis mellifera with 24 samples.

Results

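GB50405 is an annotated honey bee gene of 35169 bp on the minus strand of chromosome 4, from 6797133 to 6832301 in the Amel 4.5 assembly. It was chosen by its sense piRNA counts in ovaries, the highest of any gene there, and it is 1 of the 15313 genes in the deposited gene tables. Its locus was taken to include the rows of the transposable element (TE) tables that share at least 1 base with it, which were 3 of 34760. The sense counts that chose the gene are given as a description, without a test. The next gene in that order, just outside the choice, was GB54361 with 683770 sense counts in ovaries, against 1952927 for GB50405.

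Small RNAs of Apis mellifera reproductive tissues were sequenced from 24 libraries, and each deposited table has a single pooled column for each of 5 tissues. The labels list 3 libraries of ovaries and 3 of spermatheca, the queen's sperm storage organ, from adult laying queens that had mated naturally, and 2 libraries of semen from adult drones. The 8 testis libraries came from drone pupae at 24 (3 libraries), 72 (2 libraries) and 144 (3 libraries) hours after pupation. The 8 egg libraries held eggs under 24 hours old, with 2 libraries each of fertilised and of unfertilised eggs of mated queens, and 2 each of eggs that virgin queens had laid in worker or in drone comb cells. The bees were commercial stock, the testes came from pupae of a single colony, and no sample carried an experimental treatment other than the carbon dioxide narcosis used to make virgin queens lay. Because each tissue has 1 pooled column, values are the authors' pooled values without replicate error, and no test between tissues or p-value could be had. The 95% Wilson intervals cover counting error only and hold no spread between libraries. They treat each read as independent, and the PCR copies of a molecule were not told apart, so they can be too narrow even for that. The 4 tables (TEs and genes, sense and antisense) summed to 64175879 counts in ovaries, 99262537 in eggs, 7447278 in spermatheca, 2105449 in testes and 283610 in semen. They hold no mRNA levels, so the tissue labels could not be checked against marker genes.

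Animal piRNAs are small RNAs bound by PIWI proteins of the Argonaute family, and they guide these proteins to complementary transcripts, foremost those of transposons in the germline. Many are cut from long single-stranded precursors transcribed from piRNA clusters, and in flies and mice some also come from the transcripts of ordinary genes. A sense read has the sequence of the gene's own transcript, whereas an antisense read can pair with it. The study lists piRNA clusters that overlap this gene on its own strand. The tables pair GB50405 with a RefSeq gene number whose symbol is LOC100577492, a protein-coding gene in the later assembly Amel_HAv3.1. The symbol names no function, and none is given to the gene here.

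GB50405 led the sense gene counts of each of the female tissues and of eggs, and stood lower in the order in the male ones. Its sense counts were 3366562 in eggs, 1952927 in ovaries, 221877 in spermatheca, 1838 in testes and 298 in semen. The highest of these was 11297 times the lowest. By sense counts the gene ranked 1 of 15313 in ovaries, in eggs and in spermatheca, 33 in testes and 27 in semen, where GB41747 had the same count. In eggs the second gene was again GB54361, with 1305981, and in spermatheca it was GB50156, with 129024, so the lead over the next gene was 2.86-fold in ovaries, 2.58-fold in eggs and 1.72-fold in spermatheca. In testes the neighbouring genes in the order were GB51209 with 1870 counts and GB52211 with 1767, and in semen the gene above was GB51985 with 314. The genes in the first place there were GB51201 in testes, with 55192, and GB47541 in semen, with 54410.

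Expressed as a share of all sense gene counts of the tissue, GB50405 took 61.6% in eggs (95% interval 61.6% to 61.7%), 59.9% in ovaries (59.8% to 59.9%) and 25.7% in spermatheca (25.6% to 25.8%). In testes it took 0.328% (0.313% to 0.343%) and in semen 0.254% (0.227% to 0.285%). Most of the sense gene counts of eggs and ovaries thus lay on a single annotated gene. No adjacent pair in this order had overlapping intervals, but the step from eggs to ovaries was 1.03-fold and that from testes to semen 1.29-fold, and neither can be set against a spread between libraries. With antisense counts also in the denominator, semen was above testes, at 0.199% against 0.193%. A share also depends on the other counts in its denominator. Of all gene and TE counts, GB50405 sense reads were a similar part in ovaries (1952927 of 64175879) and spermatheca (221877 of 7447278). This part was lower in testes and semen. The paper reports that a smaller part of piRNA-sized reads lay in clusters in testes and semen than in the other tissues. It proposes that many such reads there were not true piRNAs or arose by another route. In bulk tissue, fewer cells that make the RNAs of GB50405 and fewer such RNAs per cell cannot be told apart. Per kb of gene length there were 95725 sense counts in eggs, 55530 in ovaries, 6309 in spermatheca, 52.3 in testes and 8.47 in semen. By that density GB50405 also ranked 1 in eggs and ovaries, but 5 in spermatheca, 108 in testes and 157 in semen.

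**Figure D1:**
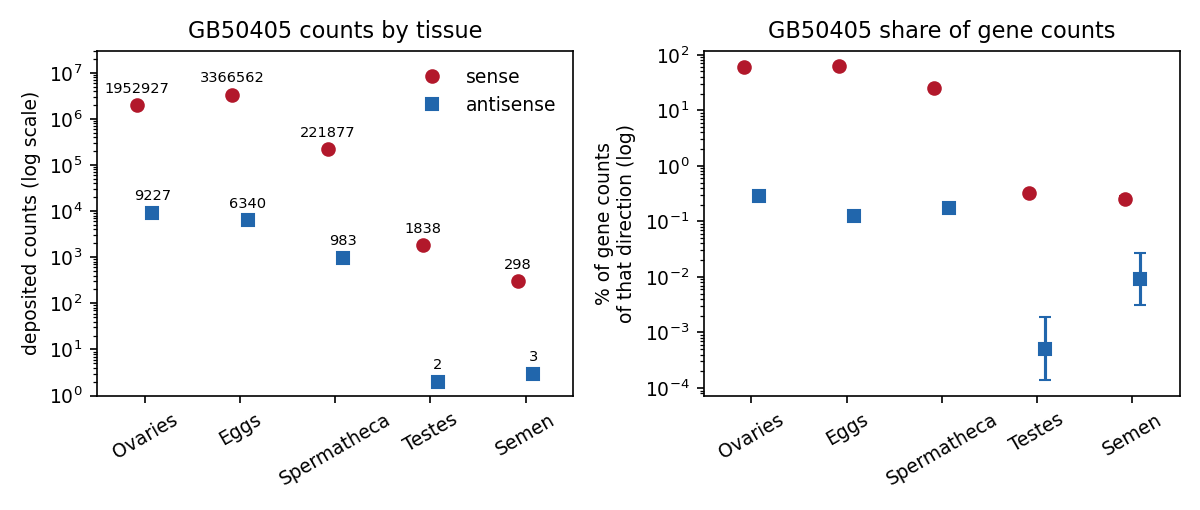
Left, deposited sense (circles) and antisense (squares) counts of GB50405 in the pooled column of each tissue, on a log axis. Right, the same counts as a percentage of all gene counts of that direction, with 95% Wilson intervals of counting error. Sense counts run from 298 in semen to 3366562 in eggs and stand above the antisense counts in every tissue.

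Antisense counts, which the choice of the gene did not use, were few beside the sense counts in all 5 tissues. They numbered 9227 in ovaries, 6340 in eggs, 983 in spermatheca, 2 in testes and 3 in semen. Sense reads therefore made up 99.5% of the counts on the gene in ovaries, 99.8% in eggs and 99.6% in spermatheca. The antisense part was 0.109% in testes (95% interval 0.0298% to 0.395%) and 0.997% in semen (0.340% to 2.89%), resting on 2 and 3 reads. This direction was common among genes: of the 376 genes with at least 100 counts in ovaries, 133 (35.4%) were at least 99% sense and the median was 92.9%, and 115 genes had a higher sense share than GB50405. The corresponding shares of genes that were at least 99% sense were 37.5% of 443 in eggs, 43.6% of 385 in spermatheca, 39.5% of 294 in testes and 79.2% of 77 in semen.

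Few as they were beside the sense reads, the antisense reads still placed GB50405 among the genes with the most antisense counts, at rank 23 in ovaries, 27 in eggs and 27 in spermatheca. They took 0.282% of the antisense gene counts of ovaries (0.277% to 0.288%), 0.126% in eggs (0.123% to 0.129%) and 0.178% in spermatheca (0.167% to 0.189%). In semen the 3 antisense counts (0.00922% of that table's counts) are at the floor used here, below which a count is not told from 0, and the 2 counts of testes lie under it. Between ovaries and eggs the balance of directions differed. Unscaled, sense counts were 1.72 times as high in eggs as in ovaries, and antisense counts 0.687 times as high. As shares of the gene counts of each direction, sense was 1.03 times as high in eggs and antisense 0.445 times. The antisense part of the gene's counts, which needs no scaling, was 0.470% in ovaries (0.461% to 0.480%), 0.188% in eggs (0.183% to 0.193%) and 0.441% in spermatheca (0.414% to 0.469%). Of the 338 genes with at least 100 counts in both ovaries and eggs, 124 had a higher sense share in eggs, 143 a lower one and 71 exactly the same. Of these 71, 62 were wholly sense in both tissues and 9 wholly antisense.

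The locus held little annotated TE sequence, as did most genes. The 3 TE rows covered 360 of the 35169 bases (1.02%), and 10912 of the 15313 genes had a smaller part of their span in TE rows and the median gene had none. ms10168 (DTX-incomp, the code of a class II DNA transposon), on the plus strand from 6797036 to 6797221, reaches 97 bases beyond the 3′ end of the gene. It had 8 counts in ovaries, 5 in eggs, 2 in spermatheca and 0 in testes and semen, and all of them ran along the strand of the gene. ms10170 (DTX-incomp-chim), on the plus strand from 6823537 to 6823657, and ms10179 (RXX-LARD, a large retrotransposon derivative), on the minus strand from 6830616 to 6830765, had 0 counts in either direction in all 5 tissues. The 8 TE counts in ovaries stand beside 1952927 sense counts on the gene, which is 0.000410 TE counts for every 100 gene counts.

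**Figure D2:**
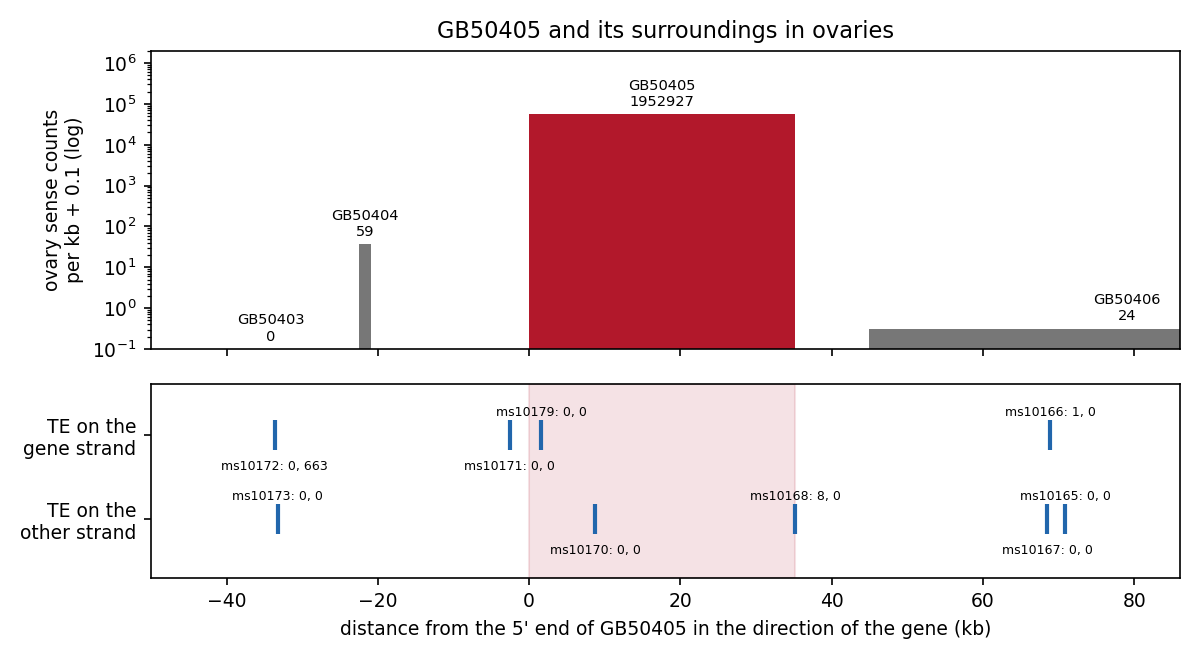
Upper panel, sense counts per kb in ovaries (plus 0.1, log axis) of GB50405 and of the annotated genes within 50000 bases, with the raw count above each bar, against the distance from the 5′ end of GB50405 in kb. Lower panel, annotated TE rows by strand, with their ovary counts along the gene strand and along the other strand, in that order. GB50405 has 1952927 sense counts between neighbours with 59 and 24, and the TE row with the most counts within it has 8.

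Low TE counts did not set GB50405 apart from other genes with many sense reads. In ovaries 46 genes had at least 1000 sense counts, and GB50405 held 62.4% of their sum. Of these, 14 overlapped no TE row, and 23, GB50405 among them, had fewer than 1 TE count on the gene strand for every 100 gene counts. The other 23 had at least 10, and 20 of them at least 50. GB54361 (chromosome 16, 2072522 to 2097792, minus strand) was on the low side, with 913 TE counts on its own strand beside its 683770 sense counts, or 0.134 for every 100, although 5054 of its 25271 bases are annotated as TE. GB45793, the third gene in sense counts of ovaries (GroupUn62, 37808 to 117833, minus strand), was on the high side, with 23.5 for every 100. The counts of TEs and of genes are separate tables, and a TE row can include bases or copies outside the gene, so a TE count can exceed that of the gene around it.

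**Figure D3:**
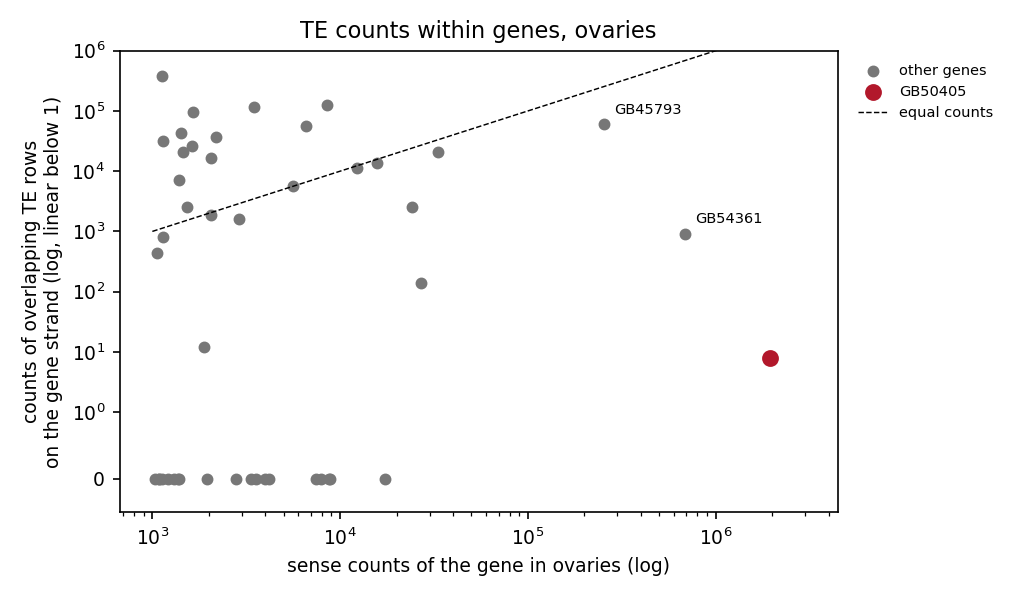
Each point is one of the 46 genes with at least 1000 sense counts in ovaries. The x axis gives its sense counts (log), the y axis the ovary counts of the TE rows that overlap it, taken along the strand of the gene (log, linear below 1), and the dashed line marks equal counts. GB50405 lies at the far right with 8 TE counts, GB54361 has 913 and GB45793 has 59733.

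The nearest annotated genes on either side had few counts. No other annotated gene overlaps GB50405, so a choice between overlapping genes did not affect its counts. GB50404 (LOC100577492, 6853177 to 6854804, minus strand) lies 20875 bases upstream, and the tables pair it with the same RefSeq number as GB50405. It had 59 sense counts in ovaries, 20 in eggs, 16 in spermatheca, 6 in testes and 2 in semen, and 0 antisense counts throughout. Per kb this was 36.2 in ovaries against 55530 for GB50405. GB50403, 34043 bases upstream, had 0 counts in all tissues and both directions. GB50406 (LOC100578579, 6675060 to 6787384, minus strand) lies 9748 bases downstream and had 24 sense counts in ovaries, 11 in eggs, 78 in spermatheca, 29 in testes and 125 in semen, an order in which semen was the highest.

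Of the TE rows in the flanks, a single one had more than 1 count in ovaries. In the 50000 bases upstream there were 3 rows, of which ms10172 (RXX-LARD, 6865575 to 6866285) had 663 counts in ovaries, 535 in eggs, 27 in spermatheca, 1 in testes and 0 in semen, all along the plus strand, opposite to GB50405. The other rows upstream had 0 counts in each tissue. The 3 rows downstream had 1 count in ovaries and 0 in the other tissues. Positions of reads within the gene are not part of the tables, so the counts do not show which part of the 35169 bases gave the reads.

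Ratios within a tissue, which need no scaling, set GB50405 beside the other features that led the sense counts of ovaries. The choice of these features followed from their values. Against GB54361, GB50405 had 2.86 times the sense counts in ovaries, 2.58 times in eggs, 4.39 times in spermatheca and 2.66 times in semen, but 59.3 times in testes, where GB54361 had 31 counts. Against GB45793 the ratios were 7.68 in ovaries, 8.32 in eggs, 8.93 in spermatheca and 9.93 in semen, and 70.7 in testes, where GB45793 had 26. The 1838 counts of GB50405 in testes thus stood well above those of the 2 genes that came next to it in ovaries. Beside a wider set they were not high, at 0.0546% of its egg counts. Over the 20 genes with the most egg sense counts the median was 0.137% (quartiles 0.0142% and 0.343%). Over the 20 such TE rows it was 0.176% (quartiles 0.150% and 0.279%). Against ms35558, the TE row with the most sense counts in ovaries (RXX-LARD, chromosome 16, 277669 to 280751, plus strand), the ratio stayed within a narrower range, at 0.236 in ovaries, 0.272 in eggs, 0.286 in spermatheca, 0.297 in semen and 0.115 in testes, a span of 2.57 times. In direction the 3 genes differed. GB54361 was 95.4% sense in ovaries (95.3% to 95.4%), below the 99.5% of GB50405. GB45793 was 30.97% sense (30.9% to 31.1%), with 566507 antisense counts.

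**Figure D4:**
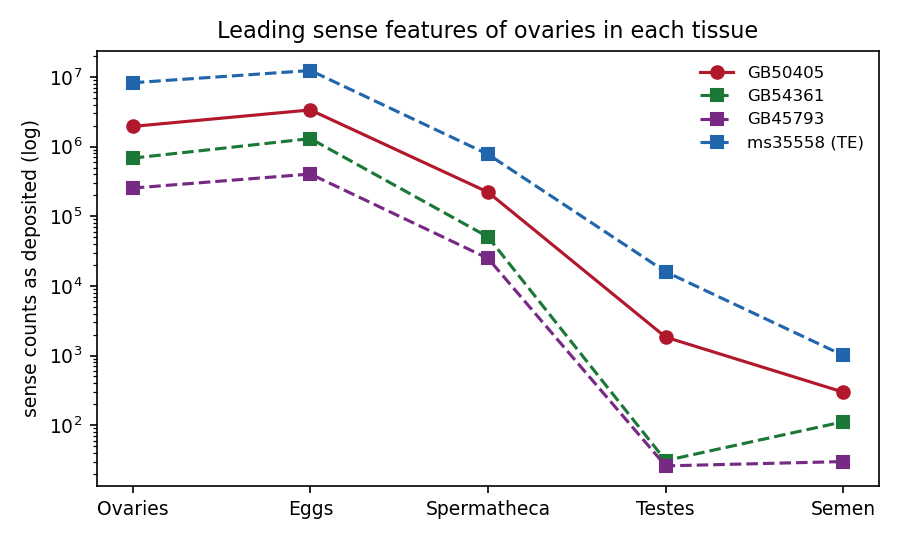
Sense counts as deposited (log axis) of GB50405, of the genes that follow it in ovaries (GB54361 and GB45793) and of the TE row ms35558, in the pooled column of each tissue. In testes GB50405 has 1838 counts, while GB54361 has 31 and GB45793 has 26.

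The semen count of GB50405 was set against its egg count and against the same ratio of other features. Its 298 semen counts were 0.00885% of its egg counts (95% Poisson interval 0.00788% to 0.00992%). For GB54361 the figure was 0.00858%, for GB45793 0.00742% and for ms35558 0.00811%, and over the 20 TE rows with the most sense counts in eggs the median was 0.00852%, with quartiles of 0.00809% and 0.00979% and a range from 0.00702% to 0.0244%. Over the 20 genes with the most sense counts in eggs the spread was wider, with a median of 0.0119%, quartiles of 0.00571% and 0.0426%, a highest value of 0.327% and 4 genes at 0. By the labels, the 2 semen libraries were sequenced in the same lane as 4 of the 8 egg libraries. No ovary library was in that lane, and against ovaries the semen count of GB50405 was at 0.0153%, beside a median of 0.0134% (quartiles 0.0123% and 0.0165%) over the 20 TE rows with the most ovary sense counts. The part of the shared lane in the semen value was not tested. In the same way, 2 of the 3 spermatheca libraries shared a lane with the 3 ovary libraries, and GB50405 in spermatheca was at 11.4% of its ovary count, beside a median of 9.73% and a range from 2.77% to 11.4% over the 20 TE rows with the most sense counts in ovaries. Over the 20 genes with the most ovary sense counts the median was 11.2%, with quartiles of 9.41% and 17.6% and a range from 5.14% to 762.3%. The remaining spermatheca library shared a lane with the 8 testis libraries. There the figures were unlike each other, since testes had 0.828% of the spermatheca counts of GB50405, 0.0613% of those of GB54361, 0.105% of those of GB45793 and 2.05% of those of ms35558. Over the 20 TE rows with the most spermatheca sense counts the median was 2.61%, with quartiles of 2.18% and 9.26%. Over the 20 genes with the most such counts the median was 60.2%, with quartiles of 1.86% and 131%. What part these shared lanes have in the spermatheca and testis counts was not tested.

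Between ovaries and the other tissues, the sense gene counts of each pair were scaled by the TMM method, which sets most genes to no change, and a gene was called where its fold was over 5 and 1 of the tissues had 5 counts or more. After scaling GB50405 was 1578-fold higher in ovaries than in testes (95% counting interval 1507 to 1652), where 10.4% of the 5962 genes tested were past 5-fold in that direction and 6.57% in the other. It was 2614-fold higher in ovaries than in semen (2334 to 2928), beside 9.08% of 3942 genes (10.5% in the other direction), and 17.2-fold higher than in spermatheca (17.2 to 17.3), beside 9.72% of 5800 (2.72% in the other direction). By the size of the fold it ranked 10 among genes against testes, 5 against semen and 134 against spermatheca. Genes with fewer than 3 counts in the other tissue were set to 3 there, so their folds in this order are lower bounds. Between ovaries and eggs it was not past 5-fold, at 0.716 times (0.715 to 0.718) or 1.40-fold higher in eggs, and 1.5% of the 4342 genes tested were past 5-fold higher in ovaries and 0.668% past 5-fold lower. Since the gene was chosen for its ovary sense counts, nothing is read from these folds against the shares of all genes.

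The folds depended on the scaling. Scaled by the sum of sense gene counts, the ratio of ovaries to spermatheca was 2.33, under the 5-fold threshold, and the ratios to testes and semen were 182.7 and 235.6. GB50405 is itself part of these sums, 59.9% in ovaries and 25.7% in spermatheca, so each ratio is that of its sense shares. Against 25.7% in spermatheca no ovary share could reach 5-fold, so the threshold decides nothing there. This scaling moved the median log2 fold of all tested genes to -3.35 against testes, -4.06 against semen, -2.92 against spermatheca and 0.48 against eggs. It also turned the split of calls, which was 622 higher and 392 lower in ovaries than in testes with TMM and 95 higher and 4078 lower with sums. With TMM the splits were 358 to 412 against semen, 564 to 158 against spermatheca and 65 to 29 against eggs, and with sums they were 71 to 1812, 24 to 4007 and 177 to 17. The direction of GB50405 in each of the 4 comparisons was the same under each setting tried. None of these settings scaled by the sum of all gene and TE counts of both directions. Of that sum GB50405 sense counts were a similar part in ovaries (1952927 of 64175879) and in spermatheca (221877 of 7447278). They were a lower part in testes (1838 of 2105449) and in semen (298 of 283610), with semen above testes. By this sum the gap from ovaries to testes and to semen was smaller than under any setting tried.

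**Figure D5:**
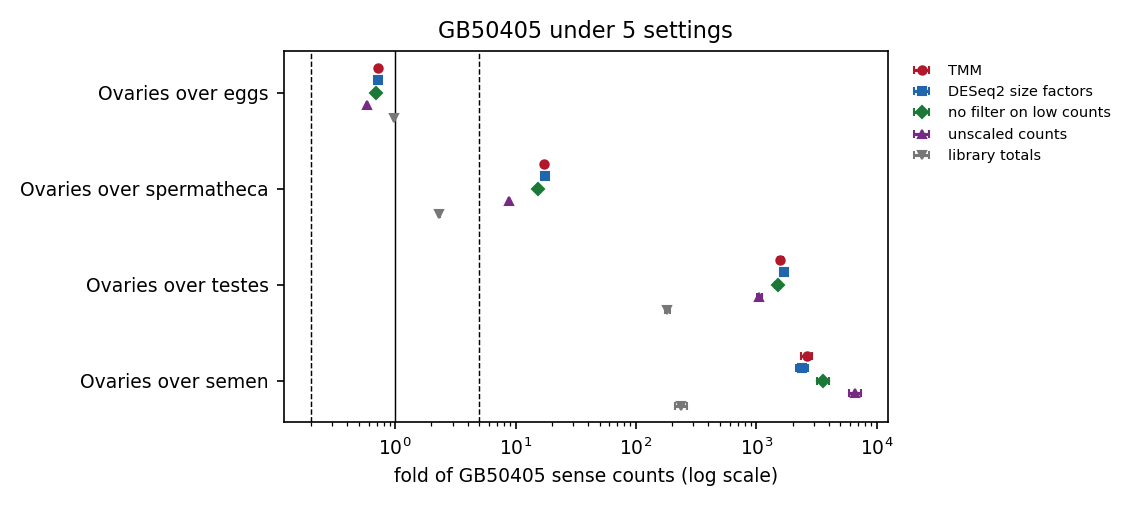
Fold of GB50405 sense counts of ovaries over each other tissue (log axis) under 5 settings, with 95% counting intervals. The solid line marks no change and the dashed lines 5-fold in either direction. Against spermatheca the fold is 17.2 with TMM and 2.33 with library totals, and against eggs it lies below 1 under each setting.

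By profile over the 5 tissues, taken as log2 sense CPM (counts scaled to a fixed sum of sense gene counts) with a pseudocount of 1 and each gene centred on its own mean, the genes nearest to GB50405 among 154 with at least 1000 sense counts were GB47118 (LOC413210, chromosome 12), GB42107 (GroupUn51) and GB48736 (GroupUn30). Their Euclidean distances were 0.729, 0.737 and 0.763, against a median of 8.86 over the other eligible genes. GB47118 had 596 sense counts in ovaries, 1094 in eggs and 43 in spermatheca, GB42107 had 391, 922 and 51, and GB48736 had 1061, 948 and 94. All of the 3 were at 0 sense counts in testes and semen, where GB50405 was not, so that part of the likeness rests on the pseudocount. GB45793 and GB54361 were farther off, at 2.69 and 3.86. In direction, GB47118 had 0 antisense counts in all tissues, whereas GB42107 had 229 in ovaries and 1000 in testes.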

How the data were processed

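The authors mapped small RNA reads to Amel 4.5 and discarded those that were unmapped, matched known non-coding RNAs or lay outside the size range of piRNAs. The rest were counted on TEs and on whole genes, introns included, with featureCounts (Rsubread). Bowtie 1.2.3 is named in the submitters' processing notes. The deposited values are raw counts, used as deposited. How libraries were combined into a column, and how reads with several positions were counted, is not given in the sources used here. GB50405 and the lists were chosen with earlier results of these data known. TE rows were matched by their annotated segments. The genes named are GB50405, its TE rows, genes within 50000 bases, its neighbours by rank in each tissue and the 3 nearest profiles. GB45793, the leading genes of testes and semen and the other genes of chromosome 4 were added after their values were seen. Symbols come from RefSeq for Amel_HAv3.1 (11390 of 15313 genes carry a number, and 11390 matched). In the folds over all genes, counts below 3 were set to 3 and called in 1 direction only. Work was done in Python 3.11.15 with pandas 2.3.3 and SciPy 1.17.1, and in R 4.3.3 with edgeR 4.0.16 and DESeq2 1.42.0. No model was fitted, for want of replicates. The fold step was checked on simulated data, in which 200 of 200 changes of 10-fold were recovered against eggs, testes and spermatheca, and 167 of 200 (83.5%) against semen. Of the unchanged genes, 5 were called against eggs and against semen, and 7 against testes and against spermatheca. Both simulated columns used the ovary proportions, so the check does not cover the differences in composition between the real tissues.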

Additional observations from a re-analysis of the deposited data

How the results depend on the processing

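No paired analysis was possible because the tables hold 1 pooled column a tissue, and for the same reason no replicate could be left out. The sense share of GB50405 was 29.9% in ovaries, 32.0% in eggs, 15.7% in spermatheca, 0.193% in testes and 0.199% in semen with both directions in the denominator. Without the leading other gene it was 75.7%, 81.0%, 30.2%, 0.363% and 0.474% in the same order. In both cases eggs stayed highest, while testes and semen changed places. The folds of ovaries over eggs, spermatheca, testes and semen were 0.971, 2.33, 182.7 and 235.6 with library totals, 0.580, 8.80, 1063 and 6553 unscaled, and 0.697, 15.4, 1503 and 3560 without the filter on low counts. With DESeq2's size factors they were 0.725, 17.6, 1700 and 2414. Unscaled calls split 41 higher to 54 lower in ovaries against eggs, 265 to 543 against spermatheca, 396 to 710 against testes and 837 to 126 against semen, and without the filter 463 to 252 against semen. Taking TE rows from their first start to their last end gave 6 rows in place of 3, since the added Tc1-Mariner entries list copies on either side of the gene. Only TE rows wholly within the gene (2) had 0 counts, as had the locus without ms10168, so no strand share could be given. Depth limits the antisense values of testes and semen, which rest on 2 and 3 counts.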

Other observations

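On chromosome 4, which has 767 genes in the tables, GB50405 held 99.7% of the sense gene counts in ovaries, 99.8% in eggs and 87.7% in spermatheca. In ovaries the gene after it was GB49544 with 532 counts, in eggs GB49548 with 441, and in spermatheca GB49566 with 17484. In testes GB50405 held 19.2% of the 9562 sense counts of the chromosome and was followed by GB52999 with 468. In semen it held 7.85% of 3796, below GB52999, which had 886.

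GB50405 is among the longer annotated genes, at rank 635 of 15313. Of the 635 genes of at least its length, 158 had a smaller part of their span annotated as TE than its 1.02%, and their median was 2.54%. Over all genes, shorter ones included, 10912 had a smaller part. Without GB50405 the sense share of all gene counts was 28.7% in ovaries in place of 49.95%, 29.4% in eggs in place of 52.0% and 53.7% in spermatheca in place of 60.9%, while in testes it was 58.8% and in semen 78.2% without the gene.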
